A study of Homo sapiens with 14 samples.

Results

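Alanine tRNAs were examined as RNA targets of TRMT2A, the human enzyme that methylates uridine at position 54 of cytosolic tRNAs. The members were the 21 genomic loci whose crosslink clusters carry a tRNA-Ala name in the study's cluster table: 9 of tRNA-Ala-AGC, 4 of tRNA-Ala-CGC and 8 of tRNA-Ala-TGC, named by anticodon. They were joined from 57 of the 563 clusters in that table and stand among 248 tRNA loci and 316 loci of any kind. Because a cluster had to reach a minimum of counts in several of the experiments to enter the table, alanine genes with few reads are not among the members.

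TRMT2A was precipitated with its bound RNA from HEK293 cells, a human embryonic kidney line, and from HAP1 cells, a near-haploid line derived from a chronic myeloid leukaemia. In FICC-Seq (fluorouracil-induced catalytic crosslinking) cells of each line were exposed to 100 µM 5-fluorouracil (5FU) for 24 h, so that the enzyme stays covalently attached to fluorinated target uridines, and endogenous TRMT2A was pulled down with an anti-TRMT2A antibody (3 libraries per line). In iCLIP the same endogenous protein and antibody were used without 5FU, and the crosslink was made with ultraviolet light (3 libraries per line). In miCLIP, HEK293 cells were transfected with FLAG-tagged TRMT2A in which the catalytic glutamate is an alanine, a mutant that remains bound to its substrate, and the precipitation was with anti-FLAG (2 libraries). The labels give the condition of all 14 libraries as untreated, although the FICC-Seq protocol includes 5FU. HEK293 and HAP1 were sequenced in separate library pools and miCLIP in a further one, so cell line and pool cannot be told apart, and miCLIP differs from FICC-Seq in construct, antibody, 5FU and pool together. The study calls its replicates biological, but no label ties them to separate cultures, so the p-values measure the spread between these libraries, which may be technical.

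A tRNA carries its amino acid at the 3′ CCA end and reads the codon through its anticodon loop. The 3 alanine isoacceptors, AGC, CGC and TGC, differ in the anticodon at bases 34 to 36 and share a stem and loop near the 3′ end, the T-arm, whose loop begins with the uridine at position 54. Methylation of that uridine gives 5-methyluridine, the base after which the T-loop is named. The adenosine at position 58 of the same loop is widely methylated to 1-methyladenosine, a base that blocks reverse transcriptase, and the adenosine at position 37 of alanine tRNA with anticodon AGC is known to be converted to 1-methylinosine. Each count is 1 complementary DNA (cDNA) molecule placed on the base before its start. A cDNA that ends just short of a crosslink at base 54 is therefore counted at 54, and one that still copies the linked base is counted at 53. The 2 positions are given as a sum where no position is named.

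The T-arm and 3′ end of the loci on which the results turn follow, because these bases hold the target uridine and are nearly all of what a read starting there contains. Each is bases 49 to 73 read 5′ to 3′ from the hg19 genome, with the thymine that encodes base 54 and the adenine at base 58 in capitals.
tRNA-Ala-AGC-3-1, chr6:28574980-28575004, plus strand: ccgggTtcaAtccccggcacctcca
tRNA-Ala-AGC-2-2, chr6:28831462-28831486, minus strand: ccgggTtcaAtccccggcacctcca
tRNA-Ala-AGC-6-1, chr6:28779849-28779873, minus strand: ctgggTtcaAtccccaatacctcca
tRNA-Ala-CGC-3-1, chr2:157257328-157257352, plus strand: ccgggTtcaAtccccggcatctcca
tRNA-Ala-CGC-2-1, chr6:28641613-28641637, minus strand: ccgggTtcgAtccccggcatctcca
tRNA-Ala-CGC-4-1, chr6:28697139-28697163, plus strand: ccgggTtcgAcccccggctcctcca
tRNA-Ala-TGC-4-1, chr12:125424559-125424583, plus strand: ccgggTtcaAtccccggcatctcca
tRNA-Ala-TGC-5-1, chr6:28785012-28785036, minus strand: tcgggTtcgAtccccgacacctcca
Numbering required an adenine at base 58, so its presence in all 20 numbered loci is by construction. At base 54 a thymine or an adenine was accepted, and all 20 loci had the thymine. The locus that could not be numbered, AGC-20-1, is a cluster at chr1:150017400-150017402 on the minus strand. The 24 bases around it, chr1:150017382-150017405 on that strand, read ctgggTcaatccccagcacctcca, with the thymine after its highest FICC-Seq position in capitals. It was counted as a locus but enters no result by position.

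Of the 21 loci, 16 lie on chromosome 6 between bases 26553731 and 28831533. By the GENCODE annotation 15 are in no annotated gene besides the tRNA. AGC-3-1 (chr6:28574933-28575004) lies in an intron of SCAND3 on the opposite strand, AGC-2-2 (chr6:28831462-28831533) in an intron of the long noncoding RNA LINC01623 on its own strand. CGC-3-1 (chr2:157257281-157257352) and TGC-4-1 (chr12:125424512-125424583), both on the plus strand, CGC-2-1 (chr6:28641613-28641684) and TGC-5-1 (chr6:28785012-28785083), both on the minus strand, overlap no other annotated gene. The windows held 0 counts on the opposite strand.

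Only reads with a single best place in the genome were counted, and this bears on every comparison between loci. The 20 bases from 54 to 73 take only 11 forms among the 20 numbered loci, and 14 loci share theirs with another member. AGC-3-1 and AGC-2-2 carry the same 20 bases, as do CGC-3-1 and TGC-4-1. AGC-2-1 and AGC-2-2 are the same over the whole gene, as are TGC-3-1 and TGC-3-2. AGC-3-1 is the only numbered locus in which the 3 genome bases after 73 read CCA, the letters that are added to every mature tRNA; the part of this in its count was not tested. A count is therefore the uniquely placed part of a tRNA's signal, and its level is not compared between loci as an amount of RNA.

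The libraries held 7002 to 104605 counts, of which 146 to 7549 fell on alanine loci (24520 in all). Libraries with few counts were the iCLIP ones, with at most 416 alanine counts each, so their shares by isoacceptor rest on 43 to 179 counts. Replicate 2 of FICC-Seq stood apart in both lines. The percentage of alanine counts lying 5′ of position 44 was 15.6 in replicate 2 against 0.0 and 0.22 in the other HEK293 FICC-Seq libraries, and 22.3 against 0.473 and 0.166 in HAP1. Other tRNAs showed the same order, at 5.83 against 0.654 and 0.722 in HEK293. Values without replicate 2 of FICC-Seq and iCLIP, a setting chosen after the data were seen, stand beside the results that they touch.

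Alanine tRNAs took a larger part of the tRNA signal in FICC-Seq than in iCLIP. Their percentage of all tRNA counts was 7.67, 9.87 and 7.73 in the FICC-Seq HEK293 libraries and 8.48, 11.4 and 9.58 in HAP1. In iCLIP it was 3.37, 5.02 and 3.83 in HEK293 and 5.39, 7.19 and 4.76 in HAP1. No iCLIP library reached the lowest FICC-Seq library of either line. The mean difference within cell lines was 4.20 percentage points (adjusted p = 0.0111, two-sided exact permutation of method labels within cell lines, the family holding 20 comparisons). In that family 13 differences were called, and none of them passed when libraries were paired by replicate number, as given in the last section. In miCLIP the percentage was 12 and 12.5, above every other library, and carries no test because 2 libraries against 3 allow no p under 0.1.

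The isoacceptors did not contribute equally, and their balance differed between the methods. AGC tRNAs made up 13.8%, 23.7% and 13.7% of alanine counts in FICC-Seq HEK293 and 13.1%, 21.7% and 14.1% in HAP1, against 28.8%, 37.96% and 34.2% in iCLIP HEK293 and 28.6%, 43.03% and 28.8% in iCLIP HAP1. The AGC part was thus smaller in every FICC-Seq library than in any iCLIP library, a mean difference of -16.9 percentage points (FICC-Seq minus iCLIP, adjusted p = 0.0111, exact permutation). Replicate 2 had the highest AGC part in each of these 4 groups. Without it the difference was -16.4 points, where so few libraries allow no call.

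CGC tRNAs took the larger part in FICC-Seq: 46.5% ± 8.92 (SD, n = 3) in HEK293 and 42.4% ± 3.15 in HAP1, against 30.2% ± 3.24 and 29.4% ± 4.68 in iCLIP, a difference of 14.6 points (adjusted p = 0.0111, exact permutation). This rested on a single gene, CGC-3-1. With that locus left out the CGC difference was 2.43 points (adjusted p = 0.267, exact permutation), and the TGC difference rose from 2.26 points (adjusted p = 0.476, exact permutation) to 12.5 (adjusted p = 0.02, exact permutation). The locus was left out because it had the most FICC-Seq counts, and the isoacceptor parts add up to the whole. The lower CGC and higher TGC differences are thus bound together, and the TGC value is not a separate finding. The TGC part of all alanine counts was 36.5% ± 5.11 and 41.3% ± 4.12 in FICC-Seq HEK293 and HAP1, and 36.2% ± 1.41 and 37.1% ± 6.17 in iCLIP.

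miCLIP had the opposite balance to FICC-Seq. AGC tRNAs gave 52.8% and 50.1% of its alanine counts, CGC tRNAs 20.5% and 27.6%, and TGC tRNAs 26.7% and 22.3%. Neither AGC value came within the range of the other 12 libraries, whose highest was 43.03% in iCLIP HAP1 replicate 2.

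Where the cDNAs stopped along the tRNA separated the methods most. In FICC-Seq the counts gathered at positions 53 and 54 with a further peak at 58. In iCLIP they were spread over 48, 53 to 54, 55 to 57 and 58, and in miCLIP over 53, 54 and the anticodon arm.

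Positions 53 and 54 together held 59.8%, 56.8% and 62.2% of alanine counts in FICC-Seq HEK293 and 52.5%, 46.2% and 60.98% in HAP1. In iCLIP they held 16.3%, 33.9% and 13.0% in HEK293 and 9.52%, 42.0% and 11.7% in HAP1. Replicate 2 was the highest of its iCLIP group in both lines, and still lay below the lowest FICC-Seq library. The difference was 35.4 points (adjusted p = 0.0111, exact permutation) and was 46.2 points without replicate 2. Each isoacceptor showed it: 48.2 points for AGC (adjusted p = 0.0182), 30.4 for CGC (adjusted p = 0.0182) and 40.03 for TGC (adjusted p = 0.0111), all by the exact permutation test. In AGC and CGC the methods overlapped in 1 place, where iCLIP HAP1 replicate 2 (47.1% and 37.4%) lay above FICC-Seq HAP1 replicate 2 (46.2% and 36.8%). For AGC the value was 67.0 points without replicate 2. In iCLIP HEK293 replicate 3 the CGC loci had 0 of 43 counts there, which allows a share of up to 6.98%.

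Counts at bases 44 to 48, the variable region before the T-arm, were almost confined to iCLIP and miCLIP. They made up 13.6%, 13.9% and 14.4% of alanine counts in iCLIP HEK293 and 24.8%, 19.9% and 26.6% in iCLIP HAP1. FICC-Seq had between 0.055% and 1.13% there in 5 libraries and 0 of 1902 counts in HAP1 replicate 1, which allows up to 0.158%. The difference was -18.5 points (adjusted p = 0.0111, exact permutation), and by isoacceptor it was -18.1 points for AGC, -14.4 for CGC and -22.5 for TGC (each adjusted p = 0.0111, exact permutation). Most of the iCLIP signal was at position 48, which held 80 iCLIP counts in HEK293 and 181 in HAP1, while FICC-Seq had 7 and 13.

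At position 58 the methods did not separate over all alanine tRNAs: 26.9% ± 6.39 in FICC-Seq HEK293, 28.9% ± 6.87 in FICC-Seq HAP1, 28.9% ± 5.19 in iCLIP HEK293 and 17.8% ± 2.44 in iCLIP HAP1, all with n = 3 (difference 4.59 points, adjusted p = 0.275, exact permutation). Beneath that value the isoacceptors went in opposite directions. The AGC share at 58 was lower in FICC-Seq (-13.98 points, adjusted p = 0.0462, exact permutation), with 10.3% ± 3.77 and 19.2% ± 8.24 in HEK293 and HAP1 against 34.6% ± 11.2 and 22.9% ± 7.24 in iCLIP. The CGC share was higher by 13.7 points (adjusted p = 0.0417, exact permutation), with 36.6% ± 9.67 and 35.3% ± 8.61 against 27.9% ± 7.57 and 16.5% ± 3.91. TGC differed by 3.79 points and did not pass (adjusted p = 0.25, exact permutation).

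Both of those calls at position 58 were fragile. The AGC call held only without iCLIP HAP1 replicate 2, FICC-Seq HAP1 replicate 1 or iCLIP HEK293 replicate 2, and was lost in the other 9 of 12 leave-one-out tests. Over all 12 the difference stayed between -16.7 and -11.1 points. The CGC call was lost in 6 of 12, namely without replicate 2 or 3 of iCLIP in either line and without replicate 1 or 3 of FICC-Seq HEK293. With the 4 CGC loci weighted equally the CGC difference was -0.57 points (adjusted p = 0.915, exact permutation), and with CGC-3-1 left out, a setting added after the data were seen, it was 0.755 points (adjusted p = 0.95, exact permutation).

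Compared with each other inside the same FICC-Seq libraries, CGC tRNAs had the smallest share at 53 and 54. It was 44.4% ± 4.66 in HEK293 and 42.4% ± 6.38 in HAP1 (SD, n = 3), against 77.6% ± 14.4 and 62.9% ± 14.8 for AGC, and 71.8% ± 2.55 and 61.3% ± 5.33 for TGC. The CGC share was below the TGC share in 6 of 6 libraries, with a mean difference of -23.1 points (SD 5.00), and below AGC in 6 of 6, by 26.9 points (SD 12.2). Each gave p = 0.03125 in the exact sign-flip permutation, the smallest that 64 sign patterns allow, and an adjusted p of 0.0536 over 12 such comparisons, which did not pass. AGC and TGC differed by 3.73 points (p = 0.406, exact permutation). At 58 the order ran the other way, with AGC minus CGC at -21.2 points and CGC minus TGC at 11.98 points, each of 1 sign in 6 of 6 libraries. CGC-3-1 gave 3492 of the 5608 FICC-Seq counts on CGC loci, with 37.9% at 53 and 54 and 43.3% at 58. CGC-2-1, CGC-1-1 and CGC-4-1 had 49.2%, 72.5% and 56.4% at 53 and 54, and 24.9%, 20.2% and 6.36% at 58. These comparisons between isoacceptors were not tested without CGC-3-1.

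Set against the 214 other tRNA loci that could be numbered, alanine tRNAs had a smaller share at 53 and 54 in FICC-Seq and a larger one at 58. Other tRNAs had 69.4% ± 4.65 at 53 and 54 over the 6 FICC-Seq libraries, an alanine difference of -13.0 points, and 18.0% ± 2.21 at 58, an alanine difference of 9.98 points. Both differences had the same sign in 6 of 6 libraries (p = 0.03125, exact permutation, adjusted p = 0.0625 over 4 comparisons), so neither passed. Among the isoacceptors CGC stood lowest at 53 and 54 (43.4% ± 5.11, SD, n = 6), while AGC at 70.3% ± 15.3 and TGC at 66.5% ± 6.84 lay close to the other tRNAs. At 58 the CGC share was 35.9% ± 8.22 and the TGC share 23.9% ± 3.47, and the AGC share, 14.8% ± 7.51, was below that of the other tRNAs. Single isoacceptors were not tested against other tRNAs. CGC-3-1, with 27.3% of alanine FICC-Seq counts, weighs on the alanine and CGC values, and the comparison was not made without it. In iCLIP neither differed beyond the spread (0.09 points at 53 and 54, p = 1.0; -2.96 points at 58, p = 0.344, exact permutation).

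At the level of single loci, the highest position in FICC-Seq was 53 or 54 in 19 of 20 numbered loci and 58 in CGC-3-1. In iCLIP it was 53 or 54 in 10 loci, 58 in 6 and 48 in 4. In miCLIP it was 53 or 54 in 19 loci and 37 in AGC-2-2. These are the highest positions of counts summed over the libraries of a method. In iCLIP they rested on as few as 5 of 17 counts (TGC-2-1). At AGC-7-1 all 8 iCLIP counts at 54 came from the second replicates, and the iCLIP ranking was not made without these. A limma-voom fit over all 264 loci with enough counts, which included all 21 alanine loci, gave differences between FICC-Seq and iCLIP as the mean of the 2 cell lines, after scaling by trimmed mean of M-values (TMM). In that fit 61.0% of all loci were called at an adjusted p under 0.05, 24.6% higher and 36.4% lower in FICC-Seq. Among alanine loci 7 were higher and 3 lower, and their median log2 difference was 0.38 against -0.19 over all loci. With library totals as the scale, which moved the median of all loci from -0.19 to 0.47, 12 alanine loci were higher and 2 lower.

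By isoacceptor, the CGC loci had a median log2 difference of 1.29, with 3 of 4 higher and 1 lower. The TGC loci had a median of 0.87, with 4 of 8 higher and 0 lower, and the AGC loci a median of -0.03, with 0 of 9 higher and 2 lower. The TGC genes that were higher were TGC-1-1 (log2 difference 1.68 ± 0.30 SE), TGC-3-1 (1.52 ± 0.36), TGC-5-1 and TGC-6-1 (1.23 ± 0.28). The other 4 TGC loci did not pass.

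CGC-3-1 was the alanine locus with the most FICC-Seq counts, 27.3% of them. FICC-Seq gave 465, 274 and 685 counts in HEK293 and 589, 758 and 721 in HAP1, while iCLIP gave 30, 21 and 16 in HEK293 and 41, 44 and 31 in HAP1. Its log2 difference was 2.04 ± 0.235 (SE), or 4.12-fold, with a limma-voom adjusted p of 1.32e-06. At position 58 it had 237, 93 and 320 counts in FICC-Seq HEK293 and 288, 251 and 323 in HAP1, against 11, 5 and 1 and 12, 7 and 2 in iCLIP (log2 difference 2.99 ± 0.49, adjusted p = 3.47e-05). Position 53 had 100, 67 and 170 counts in FICC-Seq HEK293 and 141, 175 and 217 in HAP1. In iCLIP position 53 was at 0 in 4 of 6 libraries, with 3 counts in HEK293 replicate 2 and 12 in HAP1 replicate 2 (log2 difference 4.42 ± 0.66, adjusted p = 1.07e-05). The methods did not overlap at either position, and the iCLIP counts at 53 came from the second replicates alone. Position 48, the other iCLIP peak of this gene, had 13, 7 and 7 counts in iCLIP HAP1 and 2, 2 and 1 in iCLIP HEK293, against 1 over all 6 FICC-Seq libraries.

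CGC-2-1, the second CGC gene, had 193, 204 and 291 counts in FICC-Seq HEK293 and 217, 435 and 364 in HAP1, against 24, 23 and 14 and 24, 36 and 23 in iCLIP. The log2 difference was 1.32 ± 0.22 (adjusted p = 6.13e-05). Its highest position was 53, with 70, 42 and 118 counts in FICC-Seq HEK293 and 81, 94 and 111 in HAP1, and at most 3 counts in any iCLIP library (log2 difference 3.58 ± 0.46, adjusted p = 1.9e-06). Its counts at 58 were lower than at 53 in 6 of 6 FICC-Seq libraries, at 63, 37 and 84 in HEK293 and 68, 65 and 108 in HAP1. The gene therefore ranked its positions in the order seen in most alanine loci, unlike CGC-3-1.

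The remaining CGC genes went apart. CGC-1-1 was higher in FICC-Seq, at 1.26 ± 0.38 on the log2 scale (adjusted p = 0.00726), a call lost without iCLIP HAP1 replicate 1. CGC-4-1, chosen for description after its values were seen, was lower (-2.46 ± 0.34 on the log2 scale, adjusted p = 1.17e-05), with 5, 12 and 11 counts in FICC-Seq HEK293 and 12, 43 and 27 in HAP1 against 32, 19 and 10 and 16, 16 and 20 in iCLIP. At position 53 of CGC-4-1 all 6 iCLIP libraries had 0 counts, while miCLIP had 37 and 111.

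Among AGC genes, AGC-3-1 had the most FICC-Seq counts, with 98, 129 and 126 in HEK293 and 131, 227 and 217 in HAP1. In iCLIP it had 17, 25 and 6 in HEK293 and 27, 58 and 18 in HAP1, an order kept wherever both lines are given. The groups did not overlap in raw counts, but the iCLIP libraries were shallower, and the scaled log2 difference of 0.56 ± 0.26 did not pass (adjusted p = 0.073). It did so without iCLIP HAP1 replicate 2. By position, 53 was higher in FICC-Seq (2.63 ± 0.50, adjusted p = 0.000161), with 63, 54 and 78 counts in HEK293 and 67, 82 and 100 in HAP1, while iCLIP had 1, 3 and 0 and 1, 11 and 2. Position 54, with 13, 30 and 26 counts in HEK293 and 26, 40 and 45 in HAP1, was at 0.46 on the log2 scale and did not pass (adjusted p = 0.437).

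AGC-2-2 had 11, 38 and 20 counts in FICC-Seq HEK293 and 32, 79 and 58 in HAP1, with 4, 10 and 14 and 2, 17 and 2 in iCLIP. The scaled difference was 0.17 on the log2 scale (adjusted p = 0.799). Its position 53 was higher in FICC-Seq (1.44 ± 0.58, adjusted p = 0.0353), but this call was lost in 9 of 14 fits that left out 1 library, namely either miCLIP library, replicate 1 or 3 of iCLIP in either line, replicate 2 or 3 of FICC-Seq HAP1, or replicate 3 of FICC-Seq HEK293. AGC-4-1 and AGC-6-1, also described after their values were seen, were lower in FICC-Seq, at -2.08 ± 0.33 (adjusted p = 3.82e-05) and -1.55 ± 0.36 (adjusted p = 0.00113) on the log2 scale. Most of the AGC-6-1 iCLIP signal, 59.2% of its iCLIP counts, was at 58. There iCLIP HEK293 had 19, 17 and 5 counts and HAP1 7, 15 and 14. FICC-Seq had 3, 2 and 6 counts there in HEK293 and 6, 6 and 7 in HAP1 (log2 difference -3.71 ± 0.40). At that base only iCLIP libraries had enough counts for the filter of the fit. The direction was thus set by how the base entered, and the value is a description without a p-value.

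Among TGC genes, TGC-5-1 led, with 203, 159 and 174 counts in FICC-Seq HEK293 and 220, 310 and 292 in HAP1, where iCLIP had 22, 20 and 10 and 22, 29 and 19. The fold was 2.39 (SE 0.198 on the log2 scale, adjusted p = 3.91e-05). Its position 53 had 78, 51 and 72 counts in FICC-Seq HEK293 and 91, 125 and 112 in HAP1, and at most 4 in any iCLIP library (3.54 ± 0.46, adjusted p = 2.16e-06). Position 48 ran the other way, with 5, 4 and 2 and 11, 7 and 5 counts in iCLIP against 1, 1 and 0 and 0, 1 and 0 in FICC-Seq.

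TGC-4-1 had 102, 81 and 90 counts in FICC-Seq HEK293 and 129, 188 and 248 in HAP1, where iCLIP had 39, 26 and 16 and 40, 38 and 30. Its scaled difference was -0.13 (adjusted p = 0.569), and with library totals as the scale it was 0.57 (adjusted p = 0.0321). Its direction over the whole gene is therefore not settled, but the positions moved apart. Position 53 was higher in FICC-Seq, with 57, 47 and 52 counts in HEK293 and 70, 78 and 126 in HAP1 and at most 3 in any iCLIP library (2.40 ± 0.39, adjusted p = 2.87e-05). Position 48 held 12, 9 and 6 counts in iCLIP HEK293 and 15, 12 and 9 in HAP1, and 0 in all 6 FICC-Seq libraries.

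Over all 851 single positions tested, 68.6% were called, 25.7% higher and 42.9% lower in FICC-Seq, and of the 63 alanine positions tested 25 were higher and 10 lower. Those 63 are the better-filled of 834 alanine positions with any count, and passing the filter depends on the counts themselves. A position that passed through 1 method alone could hardly be called in the other direction, which also bears on the single positions named above. Of the 18 loci tested at position 53, 12 were higher in FICC-Seq and 0 lower. At position 54 it was 5 of 15 and 0, at 58 it was 6 higher and 2 lower of 13, and at 48 it was 0 higher and 5 lower of 5. With library totals as the scale, which moved the median of all positions from -0.67 to 0.25, 37 alanine positions were higher and 8 lower.

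CGC-3-1 and TGC-4-1 carry the same 25 bases from 49 to 73 and different anticodons, and the stops in their T-loops are set side by side. Only uniquely placed reads were counted, and a read starting within these bases is told apart only by bases beyond 73. There the genome reads AAT after CGC-3-1 and GAC after TGC-4-1. The 3′ ends of the counted molecules therefore need not match, and the part of this in the values was not tested. In FICC-Seq the percentage of counts at 58 was 50.97, 33.9 and 46.7 in HEK293 and 48.9, 33.1 and 44.8 in HAP1 for CGC-3-1. For TGC-4-1 it was 21.6, 14.8 and 13.3 in HEK293 and 24.8, 23.9 and 26.6 in HAP1. The lowest CGC-3-1 library lay above the highest TGC-4-1 library. These values are a description, since the pair was chosen after CGC-3-1 was seen to peak at 58. Pooled over FICC-Seq, CGC-3-1 had 37.9% of 3492 counts at 53 and 54 and 43.3% at 58, and TGC-4-1 had 69.6% and 22.6% of 838 counts.

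The 2 miCLIP libraries gave alanine tRNAs a different shape. Position 53 held 23.5% and 26.6% of their alanine counts and position 54 held 15.5% and 8.71%. Position 58, so prominent in FICC-Seq, held 2.94% and 3.07%. The part lying 5′ of position 44 was 35.5% and 42.8%, above any FICC-Seq or iCLIP library, of which the highest was 22.3% in FICC-Seq HAP1 replicate 2. Other tRNAs moved the same way. In miCLIP they had 20.4% and 30.7% of counts 5′ of position 44 and 9.15% and 8.96% at 58. At 53 and 54 they had 48.8% and 44.3%. Their FICC-Seq means in HEK293 were 17.2% at 58 and 71.6% at 53 and 54, so the shift was not particular to alanine.

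Much of that 5′ signal lay in the anticodon arm. For 3 genes the bases 27 to 43 are shown, because they hold the stop at 37, whose adenine is in capitals.
tRNA-Ala-AGC-2-2, chr6:28831492-28831508, minus strand: cgtgcttagcAtgcacg
tRNA-Ala-CGC-3-1, chr2:157257306-157257322, plus strand: cgcgcttcgcAtgtgtg
tRNA-Ala-TGC-4-1, chr12:125424537-125424553, plus strand: catgctttgcAcgtatg
Position 37 held 13.3% and 13.9% of miCLIP counts on AGC loci (700 counts), 7.35% and 6.78% on TGC loci and 2.82% and 2.54% on CGC loci. In FICC-Seq AGC loci it held 0.0%, 6.60% and 0.402% in HEK293 and 0.0%, 10.6% and 0.0% in HAP1, so nearly all of those counts came from replicate 2. Bases 39 to 43, the 3′ side of the anticodon stem, ranked otherwise, with 18.0% ± 1.37 on CGC loci and 11.4% ± 1.78 on AGC loci in miCLIP (SD, n = 2).

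AGC-2-2 was the locus that miCLIP stopped most often at 37, with 39 and 145 counts out of 152 and 425. AGC-2-1 has the same sequence over the whole gene, yet 7.25% of its miCLIP counts were at 37, against 31.9% for AGC-2-2. Reads of these genes are told apart only by bases outside the gene, and the part of this in the values was not tested. The rank of AGC-2-2 is therefore not read as a trait of its sequence. At position 37 of AGC-2-2 FICC-Seq HEK293 gave 0, 3 and 0 counts and HAP1 gave 0, 6 and 0. The miCLIP level exceeded that of FICC-Seq in HEK293 by 6.47 ± 0.99 on the log2 scale. AGC-3-1 had 24 and 52 miCLIP counts at 37 against 0, 6 and 0 in FICC-Seq HEK293 (5.03 ± 1.23). At both bases only the miCLIP libraries had enough counts for the filter of the fit. The direction was thus set by how the bases entered, and the values are a description without a p-value.

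Over whole loci, miCLIP against FICC-Seq in HEK293 called 78.4% of all loci, 46.6% higher and 31.8% lower, and 12 alanine loci higher and 5 lower. The 12 were 8 of the 9 AGC loci, CGC-4-1 and 3 TGC loci. The AGC median was 2.39 on the log2 scale, against 0.50 over all loci, -0.39 for CGC and 0.02 for TGC. AGC-1-1 rose 10.1-fold (3.34 ± 0.42 on the log2 scale, adjusted p = 2.59e-06), and AGC-2-2 5.82-fold (2.54 ± 0.48, adjusted p = 0.000116), while AGC-3-1, at 0.62, did not pass (adjusted p = 0.057). CGC-4-1 had 177 and 479 miCLIP counts and was higher by 3.86 ± 0.48 (adjusted p = 2.04e-06). CGC-3-1, with 183 and 956 counts, was lower (-1.21 ± 0.29, adjusted p = 0.000918), as was TGC-5-1, with 99 and 245 (-1.33 ± 0.22, adjusted p = 3.77e-05). The calls of AGC-20-1, TGC-3-1 and TGC-3-2 were each lost without any 1 of 5 iCLIP libraries (all but HAP1 replicate 2). That of TGC-3-1 was also lost without miCLIP replicate 1 or FICC-Seq HEK293 replicate 3, and that of TGC-3-2 without miCLIP replicate 2, FICC-Seq HAP1 replicate 3 or FICC-Seq HEK293 replicate 1 or 3. The call of CGC-2-1 was lost without miCLIP replicate 1.

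By single position, miCLIP called 48.6% of all positions, 27.7% higher and 20.9% lower than FICC-Seq, and 26 of the 63 alanine positions higher and 10 lower, of which 8 were at 58. These directions hang on the scale. With library totals, which moved the median of all positions from 0.23 to -1.53, 12 alanine positions were higher and 26 lower. Without miCLIP replicate 1 they numbered 15 higher and 2 lower, and without replicate 2 they numbered 9 and 6. The shares within a library above do not depend on that choice.

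Few alanine differences between HEK293 and HAP1 passed a test. None of 19 comparisons of shares between the lines did (smallest adjusted p = 0.317, exact permutation within methods, with 2 at an unadjusted p under 0.05), including the share at 44 to 48, which in iCLIP was 13.97% ± 0.381 in HEK293 and 23.8% ± 3.46 in HAP1. In FICC-Seq 12.5% of all loci were called, 6.06% higher and 6.44% lower in HEK293, and 3 alanine loci were lower. TGC-6-1 had 69, 59 and 59 counts in HEK293 and 134, 198 and 246 in HAP1 (log2 difference -1.11 ± 0.23, adjusted p = 0.00206). TGC-2-1 had 5, 9 and 7 against 31, 36 and 34 (-1.75 ± 0.43, adjusted p = 0.00948), and CGC-1-1 had 27, 21 and 24 against 58, 70 and 102 (-1.16 ± 0.31, adjusted p = 0.0141). The last 2 were lost without FICC-Seq HEK293 replicate 1 or replicate 3, and none of the 3 passed in a limma-trend fit added after the data were seen. Of single positions 7.05% of all were called (4.23% higher and 2.82% lower in HEK293), and of the alanine ones only CGC-1-1 at 58, with 3, 1 and 0 counts in HEK293 against 12, 18 and 27. Only FICC-Seq HAP1 libraries had enough counts there for the filter, so the direction of this call was set by how the position entered. That call was lost in the limma-trend fit, without replicate 2 of FICC-Seq and iCLIP, and on leaving out any 1 FICC-Seq HAP1 library, either miCLIP library, or FICC-Seq HEK293 replicate 1 or 3. Whether the difference between FICC-Seq and iCLIP varied with the line was tested by a limma-voom interaction. It was called at 0 of 264 loci, among them 0 of 21 alanine loci (smallest alanine adjusted p = 0.533, with 0 at an unadjusted p under 0.05). By position it was called at 14 of 851, and at 0 of the 63 alanine positions (smallest alanine adjusted p = 0.105, with 7 at an unadjusted p under 0.05).

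The tRNA families whose scaled level over the 14 libraries was most like that of the summed alanine loci were tRNA-Arg-CCT (Pearson r = 0.924), tRNA-Asp-GTC (r = 0.920) and tRNA-Ile-TAT (r = 0.914), of 45 families with 50 or more counts. Between the alanine isoacceptors r was 0.943 for CGC and TGC, 0.372 for AGC and CGC, and 0.444 for AGC and TGC. These are descriptions over libraries of 5 groups that share depth and method.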

How the data were processed

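The authors mapped reads to hg19, kept uniquely placed reads, collapsed them by a random barcode of 5 bases and deposited, per library, signed whole numbers of cDNA counts at single positions, the sign giving the strand (recorded as another unit than plain counts). The steps below were computed from these 14 files. Cluster names and coordinates came from the study's cluster table, clusters under 40 nt apart were joined, and counts were summed from 100 nt 5′ to 25 nt 3′ on the cluster's strand. Positions were numbered from the genome sequence (234 of 248 tRNA loci). The members and lists were chosen with earlier results of these data known.

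Because of the signed unit, limma-voom (limma 3.58.1, R 4.3.3) with TMM scaling replaced the count test planned. Features needed the equivalent of 10 counts at the median depth in 2 libraries and 15 in all. P-values were adjusted (Benjamini-Hochberg, 0.05) over all features tested. Shares per library were compared by exact permutation (Python 3.11.15, numpy 2.4.6, pandas 2.3.3). The fits were tested on simulated data. Named in full are the 2 loci per isoacceptor with the most FICC-Seq counts, their highest positions, and loci whose highest FICC-Seq position is not 53 or 54; others are marked as chosen later. Likeness of families used log2(CPM + 1). Intervals and floors (3 counts) cover counting error only. Replicates differed by more than sampling noise (smallest chi-square per degree of freedom 1.59). FICC-Seq HEK293 replicates 1 and 3 carry the same 5′ barcode in the labels. Alternatives were the scaling, the filter, position and locus weighting, a replicate block and leaving out each library.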

Additional observations from a re-analysis of the deposited data

How the results depend on the processing

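The planned edgeR quasi-likelihood count test was not run, since the deposited unit, signed by strand, was recorded as another unit than plain counts. Limma-voom was run on the absolute values. Limma-trend, the setting without replicate 2 of FICC-Seq and iCLIP, and position shares without CGC-3-1 were added after the data were seen. Of 36 share results leaving out the second replicates moved 1, AGC at 53 and 54 (67.0 points), and it left 0 alanine positions called lower in HEK293. Depth limits iCLIP most, where 1 count can be over 2% of an isoacceptor. All values below are FICC-Seq minus iCLIP in percentage points unless named otherwise.

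With positions of a single count left out, the difference at 58 was -1.41 for all alanine and 8.51 for CGC (no longer passing), at 32 to 38 it was 1.36, and alanine minus other tRNA in iCLIP was -0.34 at 53 and 54 and 0.48 at 58. Without CGC-3-1 the CGC part was 2.43 and the TGC part 12.5, and the difference at 58 was -2.06 for all alanine and 0.755 for CGC. Placing positions from the highest site of the other cell line, which by construction takes 58 of CGC-3-1 for 53, gave at 58 -3.50 for all alanine, -14.0 for AGC and 0.78 for CGC, gave 3.88 for CGC at 44 to 48 and -0.67 at 32 to 38, and gave in FICC-Seq 6.02 for AGC minus CGC and -15.2 for CGC minus TGC at 58, in iCLIP -12.2 for CGC minus TGC at 58, and -3.11 and 1.89 for alanine minus other tRNA at 53 and 54 and at 58. With loci weighted equally the differences at 58 were -5.55 (all), -17.4 (AGC) and -0.57 (CGC), at 32 to 38 they were 1.48 (all) and -0.27 (CGC), and alanine minus other tRNA at 53 and 54 in iCLIP was -3.99. The cause was not tested for the others.

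With the replicate block (replicate number as pair, sign-flip over 6 pairs, smallest p 0.03125 by exact permutation), the values were by construction unchanged, and the 13 differences that had passed no longer did (adjusted p 0.0694 or 0.0962): 4.20 for the alanine part, -16.9 for AGC and 14.6 for CGC; at 53 and 54, 35.4 (all), 48.2 (AGC), 30.4 (CGC) and 40.03 (TGC); at 58, -14.0 (AGC) and 13.7 (CGC); at 44 to 48, -18.5 (all), -18.1 (AGC), -14.4 (CGC) and -22.5 (TGC). No label but a number ties the libraries, yet same-numbered libraries correlated at -0.086 to 0.625, over 0.1 in 15 of 18 pairs. Their median was 0.181, against -0.0922 for other numbers. In 28 of 36 pairings of a library with another group its own number correlated best, so a pairing was not excluded. In the limma-voom fit the block gave 2 alanine positions lower in HEK293 and left the other 12 counts of calls within 1.5 times.

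Library totals as the scale gave 12 alanine loci higher in FICC-Seq, 0.57 for TGC-4-1, 2 positions lower in HEK293, and 12 positions higher and 26 lower in miCLIP. Without the filter 60 and 484 positions were higher and lower in FICC-Seq, 32 and 10 in HEK293, and 253 and 16 in miCLIP. That setting takes in all 834 alanine positions with any count, many of them at 0 in most libraries. Voom adds 0.5 to each count, so a count of 0 takes a higher scaled value in a shallower library. These directions are therefore not read as results. Limma-trend called 0 alanine loci and 0 positions lower in HEK293.

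Leaving out 1 library at a time, the difference at 58 ran from -16.7 to -11.1 for AGC and from 11.8 to 16.4 for CGC, at 32 to 38 from -1.64 to 0.61 (all), -1.17 to 4.60 (AGC, below 0 without FICC-Seq HAP1 replicate 2) and -0.82 to 0.71 (CGC). The log2 difference of AGC-2-2 ran from -0.27 to 0.63, and that of TGC-4-1 in miCLIP from -0.414 to 0.054 (above 0 without miCLIP replicate 2). Alanine loci lower in HEK293 numbered 1 to 3. Alanine positions lower in FICC-Seq numbered 8 to 17 (17 without FICC-Seq HEK293 replicate 2), positions lower in HEK293 0 to 3, and miCLIP positions 9 to 30 higher and 2 to 11 lower, the lowest counts without 1 of the 2 miCLIP libraries.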
